A study of Mus musculus with 17 samples.

Results

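Common myeloid progenitors of adult bone marrow that carried an inducible LIN28B allele were compared with and without vavcre, by 4 of the 17 libraries of the series. The 2 libraries labelled as inducible LIN28B under vavcre (replicates 4 and 6) were set against the 2 labelled as inducible LIN28B alone (replicates 1 and 5), and every gene was described. The series concerns Lin28b and let-7 in myeloid development and holds messenger RNA counts from fetal liver and adult marrow. All 3 groups used here are C57BL/6J adult marrow sorted by flow cytometry for these progenitors, and the labels give doxycycline exposure for the wild-type libraries as for the inducible ones. The vavcre mice carry the inducible LIN28B allele plus vavcre, which the design text describes as limiting induction to blood-forming cells. The mice without vavcre carry the inducible allele alone and are also described as induced. Wild-type adult marrow (n = 3, replicates 2, 5 and 6) is given beside both. The labels used here do not give age in weeks, sex, batch, the site of the inducible allele or whether each library is its own animal. The p-values therefore reflect variation among libraries, which may be technical. Its size was estimated over all groups of the series that had replicates. The vavcre libraries differed more from each other (root mean square of 1.38 log2 units) than wild-type marrow libraries did (0.754 to 0.815). The shared estimate may therefore understate the spread with vavcre.

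LIN28B, made in fetal but little in adult blood progenitors, binds the precursors of let-7 microRNAs and stops their maturation. Mature let-7 represses messages that pair with its seed, the bases next to its 5′ end, and Hmga2, which encodes a chromatin protein of fetal stem cells, is its best known target. Vav-Cre lines use regulatory sequence of Vav1, a signalling gene of blood cells, to express Cre recombinase across the blood system. Common myeloid progenitors give rise to granulocytes, monocytes, red cells and platelets.

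Mature let-7 sequences and the matching sites of Hmga2 are shown because they are the link between LIN28B and its targets. The 9 mature mouse members in RefSeq (GRCm38.p6) share the seed at bases 2 to 8, in capitals here.
let-7a-5p: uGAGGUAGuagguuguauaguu
let-7b-5p: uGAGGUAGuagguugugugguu
let-7c-5p: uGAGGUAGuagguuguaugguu
The reverse complement of that seed, CTACCTC, was searched on the transcript strand of GENCODE vM21 3′ untranslated regions (UTRs). The 2977-base 3′ UTR of Hmga2 (transcript ENSMUST00000072777.13, minus strand, GRCm38) held 4 matches, in capitals, each printed as 28 bases of the transcript strand.
chr10:120364218-120364245: ccgacattcaatttCTACCTCagcatca
chr10:120362981-120363008: cccactcctcaataCTACCTCtgaatgc
chr10:120362543-120362570: tgatttgcaaggaaCTACCTCcacactt
chr10:120361685-120361712: atcaaaacacactaCTACCTCttaagtc
A match of these letters stood in 8.37% of 19292 genes with a 3′ UTR. Among tested genes with a 3′ UTR of at least 1637 bases, 766 held a match and 3329 did not.

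Hmga2 was highest in the vavcre libraries but missed the threshold against those without vavcre, and none of the 6 genes of the LIN28B and let-7 list passed it. Hmga2 (chr10:120361268-120476469, GRCm38) had 85.8 and 92.1 CPM (counts scaled to library size) in vavcre libraries 4 and 6, against 60.9 and 59.5 CPM without vavcre and 31.9, 28.5 and 35.4 CPM in wild-type marrow. The 3 groups did not overlap, and the order ran from vavcre down to wild type. The log2 fold change with over without vavcre was 0.56 ± 0.19 (SE), with a Benjamini-Hochberg adjusted p of 0.051 by edgeR's quasi-likelihood test, where a gene was called under 0.05. Over 19 alternatives its adjusted p ranged from 0.0082 to 0.20, with 7 under the threshold. Against wild-type marrow, the log2 fold change of Hmga2 was 1.48 with vavcre (adjusted p = 3.6e-05) and 0.91 without (adjusted p = 0.023).

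Lin28b (chr10:45376617-45486314) had 1.73 and 3.92 CPM with vavcre, against 2.06 and 3.28 CPM without and 0.745, 0.0586 and 0.274 CPM in wild-type marrow. The vavcre libraries lay on either side of the libraries without vavcre, and both inducible groups were above wild type. These levels rest on 134 counts with vavcre and 95 without, and the log2 fold change of 0.07 ± 0.43 (SE) had an adjusted p of 0.96. Reads were counted on mouse Lin28b. The labels do not say whether the induced sequence is mouse or human. Its paralogue Lin28a, on 50 and 9 counts, had 0.253 and 1.86 CPM with vavcre and 0.121 and 0.376 CPM without.

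Igf2bp3, a fetal RNA-binding protein and let-7 target, had 13.5 and 6.58 CPM with vavcre, against 6.37 and 6.07 CPM without, and an adjusted p of 0.057. Its groups did not overlap, though vavcre library 6 was close to the libraries without vavcre. Without vavcre library 6 its log2 fold change was 1.11. That fit leaves vavcre library 4 alone in its group, so it takes no account of the spread between the vavcre libraries. Igf2bp2 had 11.9 and 6.71 CPM with vavcre and 6.80 and 6.66 CPM without, and a log2 fold change of 0.81 without vavcre library 6. Igf2bp1 had 2.07 and 0.548 CPM with vavcre and 1.70 and 0.269 CPM without. All 6 fitted log2 changes of the list were above 0, but those of Lin28b, Igf2bp1 and Igf2bp2 changed sign with single libraries. That of Hmga2 ranged from 0.51 to 0.62 over the 19 alternatives. Without vavcre library 4 the log2 change was -0.00 for Igf2bp2, -0.78 for Igf2bp1 and 0.08 for Igf2bp3. Igf2bp1 had -0.37 without no-vavcre library 5. Lin28b had -0.22 without no-vavcre library 1 and -0.64 without vavcre library 6, where Lin28a had 0.00. Of the 6, 2 had an unadjusted p under 0.05, and DESeq2 called 2 and limma voom 1.

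Summed counts were 22218742 and 21779095 in the vavcre libraries, against 14957111 and 17661908 without vavcre, within the range of 14957111 to 28165554 over all 17. At equal depth, 11770 and 12305 genes had a count with vavcre, against 13786 and 13683 without and 13864 to 15288 in wild-type marrow. Cd34, Il3ra, Csf2ra and Csf2rb, which mark common myeloid progenitors, were detected in all 7 of these libraries. Cd34 had 5.78 and 7.38 CPM with vavcre and 5.77 and 5.86 CPM without. The others were less even. Csf2ra, called higher, had 74.0 and 114 CPM with vavcre, against 54.3 and 43.8 CPM without. Il3ra had 25.8 and 31.1 CPM, against 20.8 and 21.9 CPM. Csf2rb had 50.4 and 93.3 CPM, against 80.7 and 77.7 CPM. Kit and Ly6a, with more than 1 transcript each, had 0 counts in all 17 libraries and could not check the gate. Fcgr3, another marker of the gate, had 3.67 and 19.4 CPM with vavcre, against 10.4 and 10.3 CPM without. The root mean square difference over genes was 1.38 log2 units between the vavcre libraries, 1.26 to 1.29 between vavcre and no-vavcre libraries, 0.774 between the libraries without vavcre and 0.754 to 0.815 within wild-type marrow.

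Xist, which silences one X chromosome in female cells, had 164 and 173 CPM with vavcre, against 2.0 and 0.914 CPM without. The Y-linked gene Uty had 0.211 and 0.127 CPM with vavcre, against 80.6 and 94.4 CPM without and 72.3 to 90.2 CPM in wild-type marrow. Kdm5d, Eif2s3y and Ddx3y, also on Y, fell too, and vavcre library 6 held 4.43 CPM of Ddx3y where library 4 held 0.295 CPM. With 1 library left out some of these calls were lost, at adjusted p of 0.12 and 0.18 for Xist without no-vavcre libraries 1 and 5, 0.051 for Kdm5d and 0.054 for Eif2s3y without vavcre library 6, and 0.056 to 0.13 for Ddx3y without any 1 of the 4. These sex-linked levels divide the libraries exactly as vavcre does, so the 2 cannot be told apart in any result here. Left out with chromosomes X and Y, the other chromosomes gave 2728 calls among 13117 genes.

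**Figure D1:**
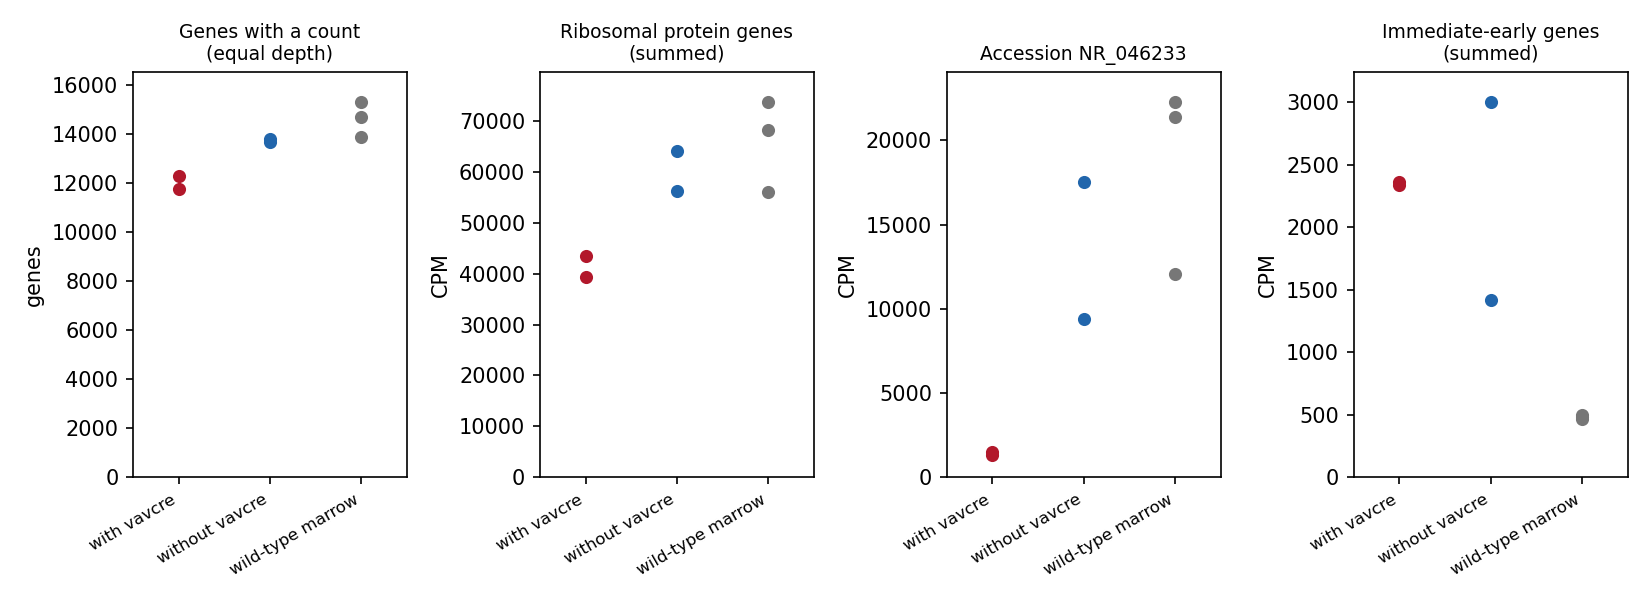
Library-level values in 2 libraries with vavcre, 2 without and 3 of wild-type marrow; each point is 1 library, on linear axes from 0. The vavcre libraries held 11770 and 12305 genes with a count at equal depth and the fewest counts on ribosomal protein genes, while the summed level of immediate-early genes was above wild type in all 4 inducible libraries.

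Of 13558 genes tested, 2799 (20.6%) differed between vavcre and no vavcre. With vavcre, 1270 (9.37%) were higher and 1529 (11.3%) lower, and the median log2 fold change of all genes was -0.01. Calls depended on level. In the quintile of genes with the highest mean CPM over the 17 libraries, 24.3% were higher and 18.3% lower. In the lowest quintile 0.258% were higher and 2.80% lower. The shares of all genes set beside the lists are not matched for level. The larger changes were mostly falls. At least 2-fold, 243 genes (1.79%) were higher and 713 (5.26%) lower. Leaving out no-vavcre library 5 the calls dropped to 1376 (604 higher and 772 lower), and without no-vavcre library 1 to 1986 (844 higher). At least 2-fold, the lowest of these counts was 565 without no-vavcre library 5 (124 higher and 441 lower), while 1457 were called without vavcre library 4 (444 higher) and 1088 of the falls without vavcre library 6. A fit on the 4 libraries alone called 422, of which 220 were higher and 202 lower. Many genes named below lost their call in that fit, also where only fits without 1 library are given. The 2 groups did not overlap for 6797 genes (50.1%). Were the labels of the 4 libraries interchangeable, a share of 0.333 would not overlap, so a lack of overlap in 1 gene says little.

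Genes at 0 were uneven between the groups. Of tested genes, 1393 were at 0 in both vavcre libraries, and 30 of these had at least 1 CPM in both libraries without vavcre. In the other direction, 804 were at 0 in both libraries without vavcre, and 2 of these had at least 1 CPM in both with vavcre. The vavcre libraries were the deeper ones, and fewer genes detected stood with vavcre at equal depth too.

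**Figure D2:**
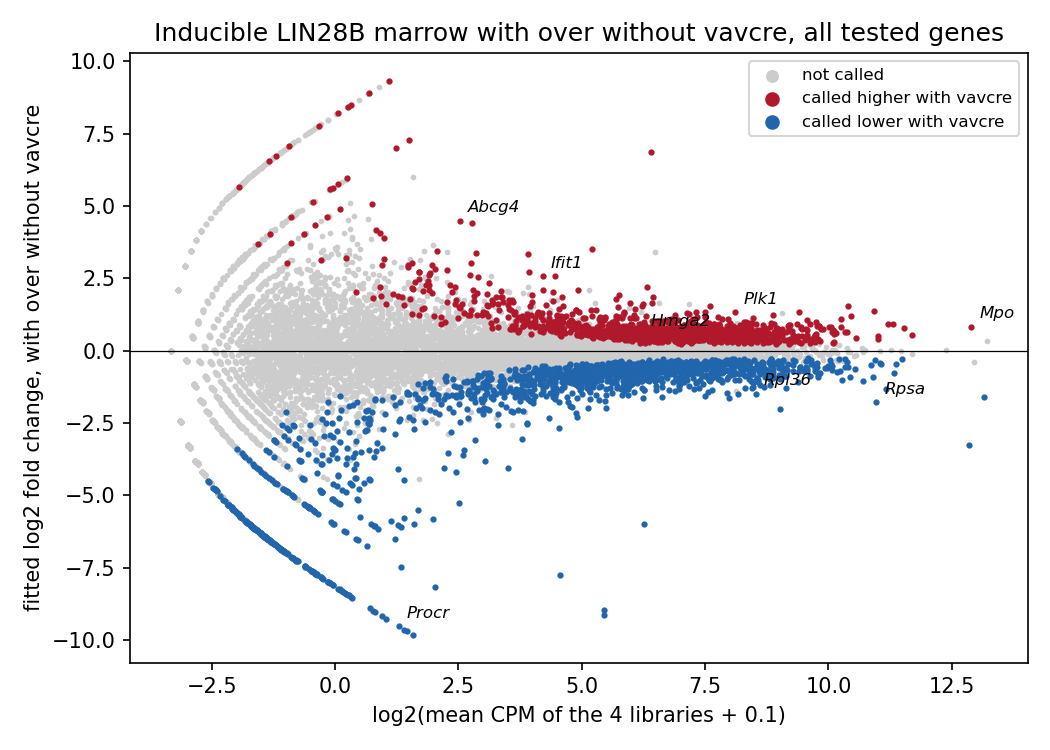
Fitted log2 fold change with over without vavcre (vertical axis) against log2 of the mean CPM of the 4 libraries plus 0.1 (horizontal axis), 1 point a gene for 13558 genes, red and blue where called higher or lower with vavcre. The bands at the left edge are genes at 0 in 1 group, more of them below the line than above it; their fitted values depend on the prior count.

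Among the 15 rises named by size were 4 neighbouring genes of stefin and cystatin-domain protease inhibitors on chromosome 16. Stfa2l1 (chr16:36156811-36161948) had 4.69 and 21.1 CPM with vavcre, against 0.546 and 0.645 CPM without. Cstdc5 had 29.4 and 107 CPM with vavcre, against 11.3 and 0.860 CPM without. Cstdc4 had 6.25 and 19.8 CPM, against 1.09 and 1.40 CPM, and Stfa1 had 15.4 and 39.1 CPM, against 4.98 and 0.484 CPM. Vavcre library 6 was the highest of the 4 for each of these, and wild-type marrow was under 1 CPM. They are near-identical copies whose reads can be split or set aside, so which copy rose is uncertain. With no-vavcre library 5 omitted the adjusted p was 0.071 for Cstdc5 and 0.062 for Stfa1, and without vavcre library 6 it was 0.054 for Cstdc5.

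Abcg4 (chr9:44273188-44288656), a lipid transporter of the ABC family, had 7.05 and 14.7 CPM with vavcre, against 0 and 0.914 CPM without and 1.17 to 1.99 CPM in wild-type marrow. Its fitted rise was 4.49 ± 0.99 (SE) on the log2 scale with an adjusted p of 0.0049 by edgeR. In the edgeR fit on the 4 libraries alone its adjusted p was 0.15. Epb42, a protein of the red cell membrane skeleton, had 29.2 and 46.2 CPM with vavcre, against 6.56 and 6.13 CPM without. Its fold was 5.95 and its adjusted p 0.0012, and it was above wild type too (4.82 to 13.1 CPM).

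Nrp1, a receptor for semaphorins and VEGF, had 18.7 and 41.0 CPM with vavcre, against 6.68 and 7.20 CPM without. Wild-type marrow, with 18.6 to 29.2 CPM, was nearer the vavcre libraries. Nucb2, a calcium-binding protein, had the same pattern, with 11.8 and 13.2 CPM with vavcre, 0.729 and 3.55 CPM without and 6.79 to 10.4 CPM in wild-type marrow. With the 4 libraries alone the adjusted p of Nucb2 was 0.14 by edgeR. The heparan sulfate proteoglycan Sdc3 was likewise lower without vavcre (20.6 and 8.14 CPM with vavcre, 3.22 and 2.42 CPM without, 7.23 to 26.5 CPM in wild type).

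Timp3, an inhibitor of metalloproteinases, had 44.5 and 7.97 CPM with vavcre, against 2.37 and 5.59 CPM without, and it was high in vavcre library 4 only, as its adjusted p was 0.13 without that library. The schlafen genes were high in vavcre library 6. Slfn2 had 20.2 and 77.5 CPM with vavcre, against 9.41 and 13.6 CPM without, and Slfn1 had 3.88 and 19.9 CPM, against 1.15 and 1.72 CPM. The kinase gene Map3k15, on chromosome X, had 10.9 and 11.7 CPM with vavcre and 1.03 and 2.63 CPM without. Without vavcre library 6 the adjusted p was 0.33 for Slfn1 and 0.18 for Slfn2. Without no-vavcre library 1 it was 0.20 for Slfn1, 0.080 for Slfn2, 0.17 for Map3k15 and 0.068 for Timp3. In the fit lacking no-vavcre library 5 it was 0.16 for Slfn1, 0.054 for Map3k15 and 0.067 for Sdc3, which had 0.052 without vavcre library 4.

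**Figure D3:**
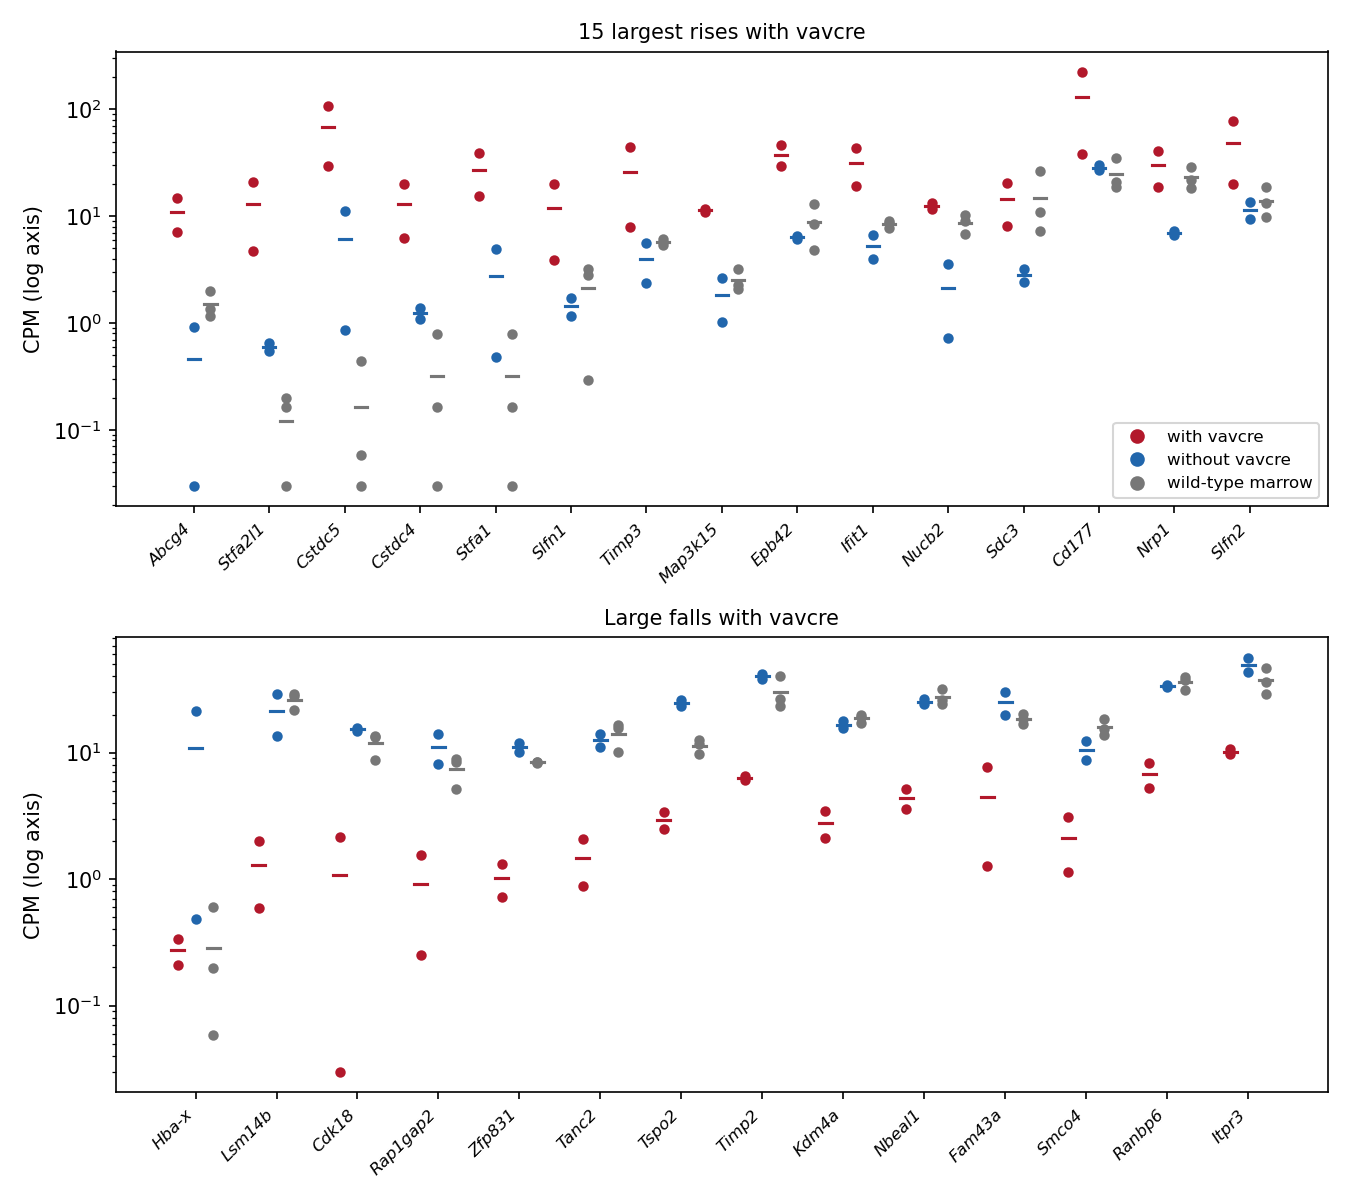
CPM (log axis) of the 15 rises and of 14 falls named by size with vavcre; points are libraries, horizontal bars group means, and a library at 0 counts is drawn at 0.03 CPM. Many falls lie near wild-type level without vavcre and below it with vavcre.

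Many of the falls named by size were of genes near their wild-type levels without vavcre. Lsm14b, an RNA-binding protein of translational control, had 1.98 and 0.591 CPM with vavcre, against 13.4 and 29.0 CPM without and 21.8 to 28.9 CPM in wild-type marrow. It was 16.4-fold lower with vavcre (log2 -4.04 ± 0.59 SE, adjusted p = 0.00031). With the 4 libraries alone its adjusted p was 0.060 by edgeR. Kdm4a, a histone H3 demethylase, had 2.11 and 3.46 CPM with vavcre, against 15.7 and 17.7 CPM without and 17.3 to 20.0 CPM in wild type. Ranbp6, an importin-family gene, had 8.23 and 5.23 CPM with vavcre, against 32.8 and 34.1 CPM without. In each of these 3 genes both vavcre libraries were below the 5 libraries without vavcre and of wild-type marrow.

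Itpr3, a calcium channel of the endoplasmic reticulum, had 9.71 and 10.7 CPM with vavcre, against 55.9 and 43.3 CPM without. Timp2, like Timp3 an inhibitor of metalloproteinases, moved the other way, with 6.58 and 6.12 CPM with vavcre and 38.1 and 42.1 CPM without. Tspo2, an erythroid relative of the translocator protein, had 3.38 and 2.49 CPM with vavcre, 26 and 23.3 CPM without and 9.72 to 12.7 CPM in wild-type marrow, so that the inducible groups lay on either side of wild type. Nbeal1, Tanc2, Zfp831, Fam43a, Smco4, Cdk18 and Rap1gap2 fell between 5.0-fold (Smco4) and 14.1-fold (Cdk18). With the 4 libraries alone, the adjusted p by edgeR was 0.060 for Tanc2, 0.17 for Fam43a and 0.23 for Cdk18. Smco4 and Rap1gap2 also lost their calls there, and Nbeal1 and Zfp831 kept theirs. Without no-vavcre library 5 the adjusted p was 0.056 for Rap1gap2 and 0.052 for Smco4.

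Hba-x, the embryonic zeta-like globin, fell, but its fall rested on 1 library. It had 0.338 and 0.211 CPM with vavcre, against 21.4 and 0.484 CPM without. Without no-vavcre library 1 its log2 fold change was -0.81 and its adjusted p 0.82, and without vavcre library 6 its adjusted p was 0.054.

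Of 22 tested members of the G2 and M phase list, whose products carry out mitosis, 9 (40.9%) rose with vavcre, where 9.37% of all genes did. The other 13 were not called, and the median log2 fold change was 0.59, against -0.01 over all genes. Plk1 (chr7:122159435-122169884), the kinase that drives mitotic entry, had 442 and 351 CPM with vavcre, against 160 and 153 CPM without and 137 to 148 CPM in wild-type marrow. Its fold was 2.53 (log2 1.34 ± 0.15 SE, adjusted p = 5.3e-05), and the call held under all 19 alternatives. Hmmr, a spindle protein, had 266 and 246 CPM with vavcre, against 138 and 143 CPM without. The vavcre libraries were above the other 5 in both genes.

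Cyclins B1 and B2 (Ccnb1 and Ccnb2), Bub1b of the spindle checkpoint, its partner Cdc20, the kinase Aurkb, the spindle motor Kif11 and the kinetochore gene Cenpf also rose. Ccnb1 had 439 and 409 CPM with vavcre, against 283 and 272 CPM without. Kif11 had 444 and 482 CPM with vavcre, against 269 and 300 CPM without. Between 6 (the 4 libraries alone) and 9 members rose under the alternatives. Of 26 genes of DNA replication and the G1 to S transition, 5 rose (19.2%, against 9.37% of all genes), with a median log2 fold change of 0.20. In the quintile of all genes with the highest mean CPM, 24.3% rose. Rrm2, a subunit of ribonucleotide reductase, had 611 and 737 CPM with vavcre and 405 and 389 CPM without. Its partner Rrm1 had 1036.5 and 930.2 CPM with vavcre and 747 and 715 CPM without. Mcm2, Mcm7 and Gins2 of the replicative helicase rose by 0.25 to 0.43 on the log2 scale. Leaving out no-vavcre library 5, 1 of the 5 rose, and the adjusted p was 0.052 for Rrm1 and 0.094 for Mcm2, which had 0.082 without vavcre library 4.

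Interferon-response genes rose with vavcre in 9 of 32 tested members (28.1%, against 9.37% of all genes), and 1, Bst2, fell. The median log2 fold change was 0.51, with 0.24 without vavcre library 6 and 0.81 without vavcre library 4. Ifit1, which binds viral RNA, had 43.4 and 19.4 CPM with vavcre, against 6.62 and 3.98 CPM without and 7.79 to 9.09 CPM in wild-type marrow. Rtp4, an interferon-induced transport protein, had 108 and 87.3 CPM with vavcre, 35.6 and 37.2 CPM without and 35.8 to 36.8 CPM in wild type. Cmpk2, a mitochondrial nucleotide kinase, had 140 and 182 CPM with vavcre and 95.1 and 90.0 CPM without. Each had both vavcre libraries above the other 5.

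Oas1a and Oasl2 of the oligoadenylate synthetase family, Ifi44, Usp18, Lgals3bp and Xaf1 completed the rises, from 0.47 (Lgals3bp) to 2.03 (Ifi44) on the log2 scale. Bst2, which tethers budding viruses, had 44.0 and 39.3 CPM with vavcre, against 52.4 and 60.7 CPM without. With no-vavcre library 5 omitted, 4 members rose and Ifit1 had an adjusted p of 0.056, and with the 4 libraries alone 2 rose. MHC class I genes, which present peptides to T cells and are often induced by interferon, were counted apart. Of 15, 4 fell (26.7%, against 11.3% of all genes) and 1 (Pdia3, a chaperone of peptide loading) rose. H2-K1, a classical class I heavy chain, had 818 and 821 CPM with vavcre, against 1531 and 1809 CPM without and 1338 to 1745 CPM in wild type. The others that fell were H2-Q4, H2-T23 and the chaperone Calr, and class I genes share sequence, so their separation is uncertain. Without no-vavcre library 1, 2 fell. In the fit lacking no-vavcre library 5, 1 fell, and the adjusted p was 0.11 for H2-Q4 and 0.079 for H2-T23. H2-T23 also missed the threshold without no-vavcre library 1 (0.074) and vavcre library 6 (0.064).

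**Figure D4:**
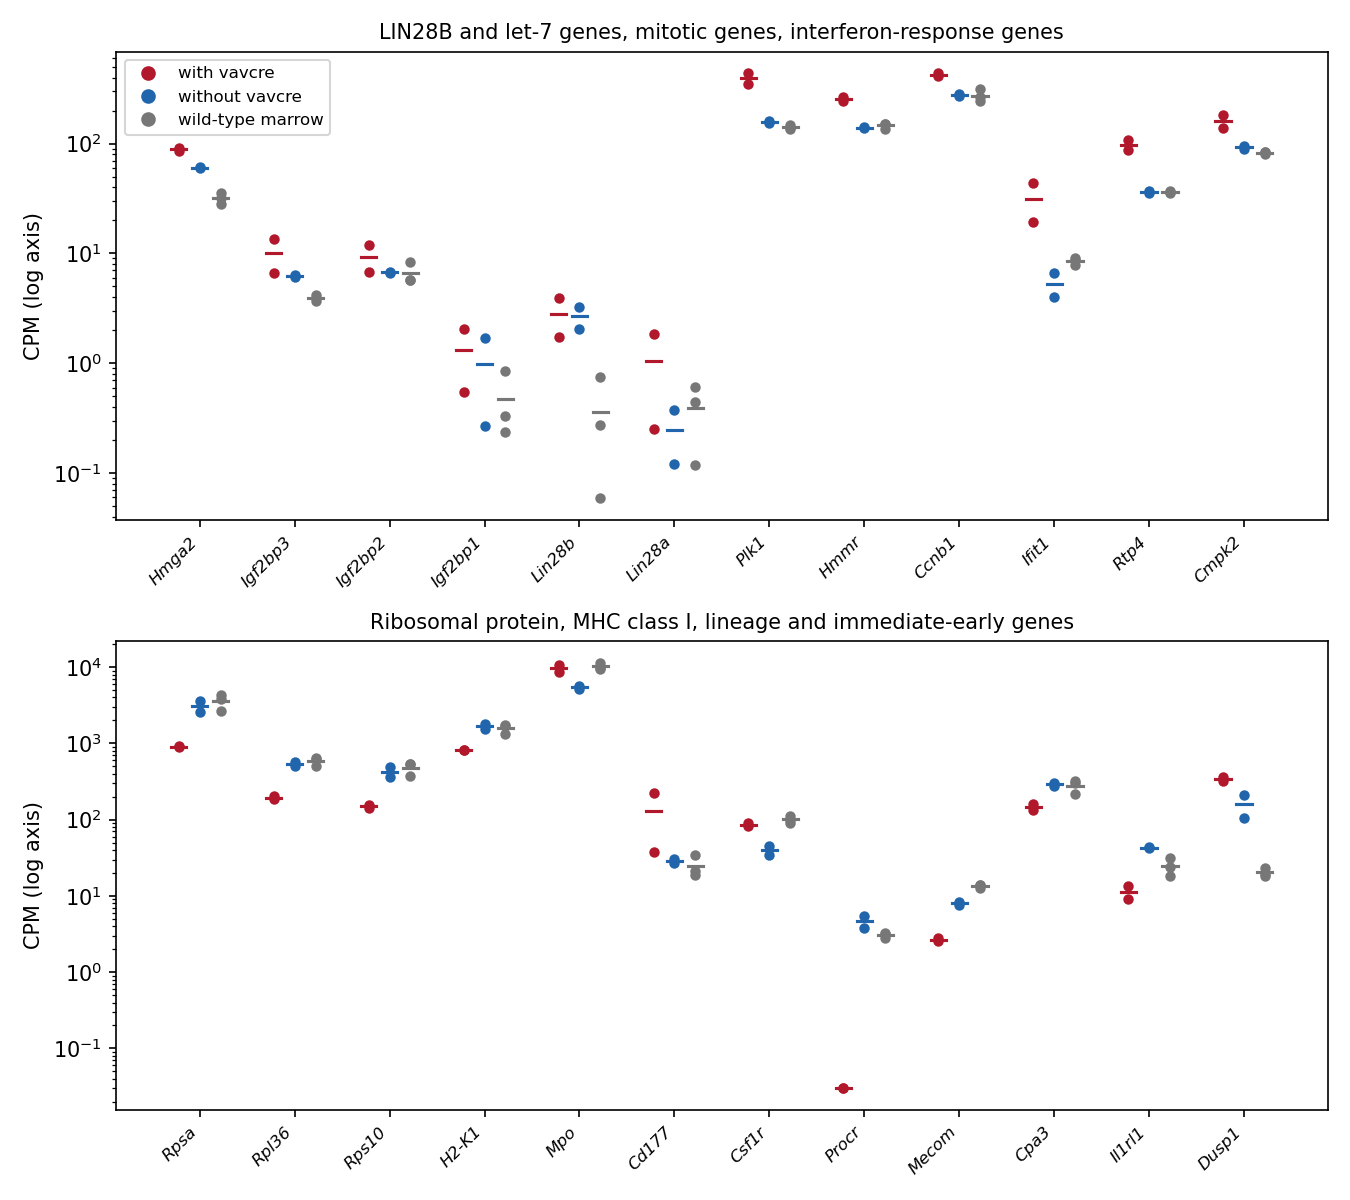
CPM (log axis) by library for members of the main gene groups; horizontal bars are group means and a library at 0 counts is drawn at 0.03 CPM. Plk1, Hmmr, Rtp4 and Cmpk2 were highest with vavcre, Rpsa, Rpl36, Rps10 and H2-K1 lowest with vavcre, and Lin28b overlapped between the inducible groups.

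Of 60 tested ribosomal protein genes, 44 (73.3%) fell with vavcre, where 11.3% of all genes did. Rpl35 alone rose, and the median log2 fold change was -0.66. Their summed level was 43448 and 39319 CPM with vavcre, against 56163 and 64165 CPM without and 56077 to 73644 CPM in wild-type marrow. Rpl36 of the large subunit had 202 and 184 CPM with vavcre, against 510 and 576 CPM without and 511 to 634 CPM in wild type. Rpsa, a small-subunit protein, had 919 and 890 CPM with vavcre, against 2589.5 and 3568 CPM without. In both genes the vavcre libraries were below all 5 others and the libraries without vavcre were within or near the wild-type range.

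Rps10 and Rpl28 fell to 0.35 and 0.41 of their level without vavcre. Rpl35 had 1070.3 and 954 CPM with vavcre, against 790 and 803 CPM without, and its call was lost without either library of the group without vavcre or vavcre library 4. Over the alternatives the lowest count of falls was 31 of 60, without no-vavcre library 5. Many of these genes have near-identical pseudogene copies, so their levels are uncertain where reads were set aside. The elongation factor Eef1a1, which is outside the lists and was picked after its values were seen, had 4629 and 4323 CPM with vavcre, against 11804 and 15472 CPM without. Accession NR_046233, which the reference table does not name and which was also picked after its values were seen, had 1295 and 1512 CPM with vavcre, against 9373 and 17522 CPM without and 12074 to 22249 CPM in wild type. With the ribosomal protein genes and this accession left out before library sizes were set, 2743 of 13361 genes were called, and 2715 of these were among the 2799. Fewer genes detected, fewer counts on this accession and fewer on ribosomal protein genes stood together in the vavcre libraries, and their part in one another was not tested.

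Of 47 tested let-7 targets of the list, 5 rose (10.6%) and 4 fell (8.51%), shares near those of all genes (9.37% and 11.3%), with a median log2 fold change of 0.07. Slc20a1, a phosphate transporter, had 135 and 188 CPM with vavcre, against 85.3 and 64.8 CPM without. Nras, a Ras GTPase, and the cyclin Ccnd2 rose by 0.35 and 0.54 on the log2 scale, and Rrm2 and Aurkb, also in the cell-cycle lists, were the others. The transcription factor Plagl2 had 47.8 and 61.7 CPM with vavcre, against 105 and 89.8 CPM without. The cell-cycle kinase Cdk6 had 104 and 81.0 CPM with vavcre and 168 and 186 CPM without, and Bach1 and Il6 fell as well. Without no-vavcre library 5, 2 fell. Without vavcre library 4, 7 rose and 7 fell, and without vavcre library 6, 8 rose.

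Across all tested genes with a 3′ UTR, the median log2 fold change was -0.03 for 1178 genes with a let-7 seed match and -0.00 for 11114 without. Of genes with a match, 9.25% were higher and 12.3% lower, against 10.2% and 11.7% without. In the tested genes with a 3′ UTR of at least 1637 bases, the medians were -0.08 with a match and -0.09 without. A match is a match of letters only.

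Genes that make or use microRNAs fell in 4 of 16, where 11.3% of all genes fell. Xpo5, which exports microRNA precursors from the nucleus, had 96.1 and 70.0 CPM with vavcre, against 122 and 155 CPM without. Ago1, an Argonaute protein that binds mature microRNAs, had 13.1 and 23 CPM with vavcre, against 38.8 and 36.3 CPM without. Its relative Ago2 fell by 0.49 and Khsrp, a protein that promotes let-7 processing, fell by 0.39 on the log2 scale. In both genes the vavcre libraries were below the libraries without vavcre. With the 4 libraries alone, 0 of the 16 fell. Leaving out no-vavcre library 5 the count was 0, with adjusted p of 0.063 for Xpo5, 0.059 for Khsrp and 0.053 for Ago1, which also missed the threshold without no-vavcre library 1 (0.059) and vavcre library 4 (0.086).

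**Figure D5:**
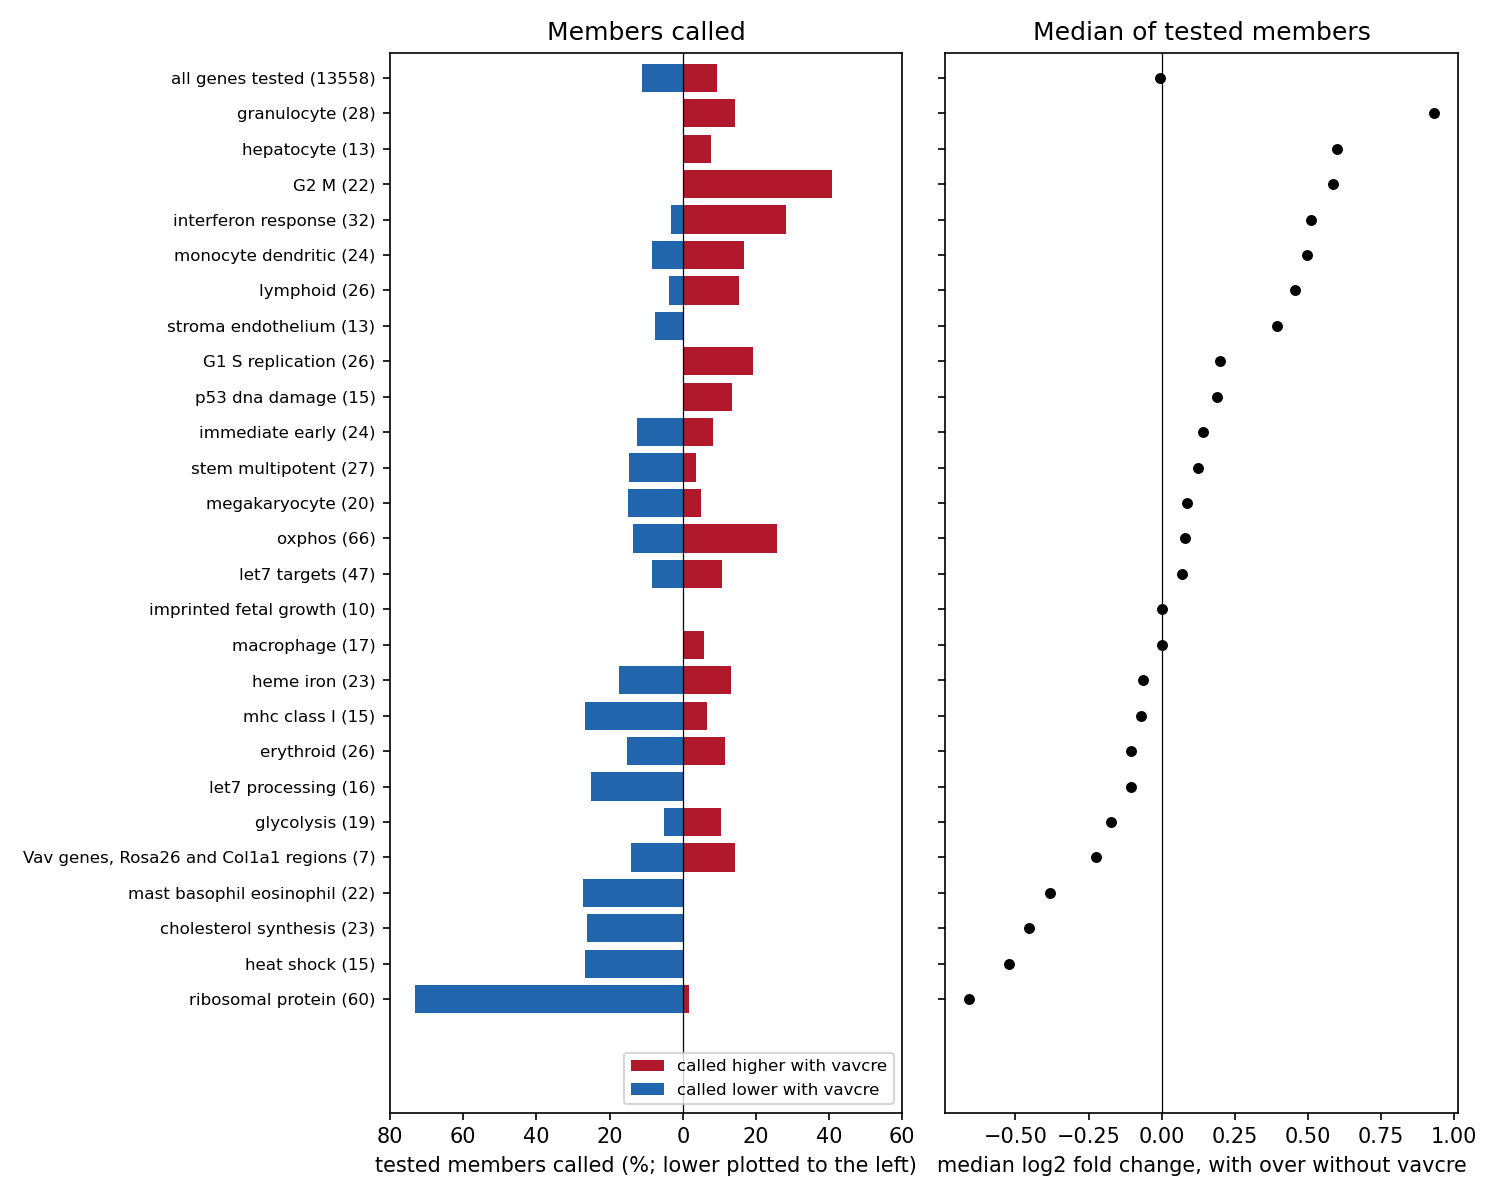
Left, percent of tested members called higher (right of 0) and lower (left of 0) with vavcre; right, their median log2 fold change with over without vavcre. The number tested stands beside each list, and all 13558 genes are at the top. Of the lists drawn, ribosomal protein genes have the lowest median (-0.66) and G2 and M genes the highest share of rises.

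Granulocyte genes had a list median of 0.93, which turned with 1 library. Of 28 tested, 4 rose with vavcre (14.3%, against 9.37% of all genes). Mpo, myeloperoxidase of early granules, had 8707 and 10689 CPM with vavcre, against 5728 and 5156 CPM without and 9493 to 11443 CPM in wild-type marrow. The vavcre libraries were near wild-type level, and those without vavcre below it. Cd177, a neutrophil surface protein, had 37.9 and 223 CPM with vavcre, against 30.1 and 27.1 CPM without. Stfa1 and Stfa3 were the others. The summed level of the list was 10240 and 15882 CPM with vavcre, against 7780 and 6787 CPM without and 11680 to 13600 CPM in wild type.

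Ngp, a neutrophil granule protein of the list picked after its values were seen, had 201 and 1327 CPM with vavcre and 387 and 229 CPM without, and was not called. It was high in vavcre library 6 alone. Without vavcre library 6 the list's median was -0.30 and 1 member rose, with adjusted p of 0.59 for Cd177, 0.068 for Mpo and 0.14 for Stfa3. Without vavcre library 4 the median was 1.61 and 15 rose. With no-vavcre library 5 omitted none rose, where Mpo had an adjusted p of 0.11, Cd177 0.13 and Stfa3 0.18, and Cd177 had 0.094 without no-vavcre library 1. In sorted bulk cells, more cells of a type and more RNA per cell cannot be told apart.

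Monocyte and dendritic genes rose in 4 of 24 (16.7%, against 9.37% of all genes) and fell in 2 (8.33%, against 11.3%). Csf1r, the receptor for M-CSF, had 81.7 and 89.3 CPM with vavcre, against 44.7 and 34.4 CPM without and 91.5 to 113 CPM in wild-type marrow. As with Mpo, the libraries without vavcre stood below wild type. Siglech, a marker of plasmacytoid dendritic cells, had 213 counts with vavcre and 1 count without, a ratio of 158 per unit of depth with a 95% counting interval of 28 to 6256. Cx3cr1, a chemokine receptor, had 4.14 and 4.56 CPM with vavcre, against 10.1 and 8.11 CPM without. Ly86 and Batf3 rose and Bst2 fell. The list's median was 0.50, and -0.33 without vavcre library 6. In the fit lacking no-vavcre library 5, 1 rose and Siglech had an adjusted p of 0.096. Without vavcre library 4, 8 rose, and without vavcre library 6, 5 fell. Without either no-vavcre library 1 member fell, and without library 1 of that group 2 rose and Cx3cr1 had an adjusted p of 0.087. Of 17 macrophage genes, Cd68 rose (5.88%, against 9.37% of all genes), with 7.30 and 10.4 CPM with vavcre and 3.46 and 2.36 CPM without. The macrophage list's summed level was 50.4 and 88.4 CPM with vavcre, against 44.6 and 29.8 CPM without and 99.8 to 121 CPM in wild type. Of the macrophage list, 6 rose without vavcre library 4, and 2 rose and 3 fell without vavcre library 6.

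Of 26 erythroid genes, 3 rose (11.5%) and 4 fell (15.4%), shares near the 9.37% and 11.3% of all genes. The median log2 fold change was -0.11, with 0.06 without vavcre library 6, 0.02 without no-vavcre library 1 and -0.27 without vavcre library 4. Besides Epb42, Nfe2, a transcription factor of globin genes, rose, with 52.5 and 61.6 CPM with vavcre and 27.4 and 23.8 CPM without, as did Trim10. Zfpm1, the GATA1 cofactor known as FOG1, had 132 and 121 CPM with vavcre, against 257 and 258 CPM without and 151 to 166 CPM in wild-type marrow. The erythropoietin receptor Epor had 21.9 and 15.2 CPM with vavcre, against 47.4 and 41.9 CPM without and 19.9 to 22 CPM in wild type. For both genes the libraries without vavcre stood above the other 5. Icam4 and the kinase Dyrk3 were the other falls, and Gata1 itself was not called, with 222 and 135 CPM with vavcre and 232 and 221 CPM without.

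Of 23 heme and iron genes, 3 rose (13%) and 4 fell (17.4%), against 9.37% and 11.3% of all genes. Fech, which inserts iron into the heme ring, had 203 and 225 CPM with vavcre, against 117 and 121 CPM without. Glrx5 and Abcb6 rose by 0.47 and 0.52 on the log2 scale. Ireb2, an iron-regulatory protein, had 59.3 and 70.8 CPM with vavcre and 94.9 and 91.4 CPM without, and Abcb10, Ftl1 and Uros fell too. Without no-vavcre library 5, 1 heme gene rose and 1 fell (Glrx5 adjusted p = 0.061, Ireb2 0.051), and 2 erythroid genes fell. Ireb2 also missed the threshold without no-vavcre library 1 (0.059) and vavcre library 4 (0.076). In each of these 2 fits 1 heme gene fell, while 6 fell without vavcre library 6.

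Of 20 megakaryocyte genes, 3 fell (15%, against 11.3% of all genes) and 1 rose (5%, against 9.37%). The median log2 fold change was 0.09 (-0.09 without vavcre library 6). Gata2, a transcription factor of early progenitors, had 509 and 440 CPM with vavcre, against 761 and 780 CPM without and 457 to 479 CPM in wild-type marrow. F2r, the thrombin receptor, had 164 and 132 CPM with vavcre, against 308 and 314 CPM without. F2rl2, its relative, had 24.8 and 18.9 CPM with vavcre, against 8.50 and 10.05 CPM without and 18.6 to 36.7 CPM in wild type. Slamf1, also in the stem cell list, was the other fall. Leaving out no-vavcre library 5, no member was called (Gata2 adjusted p = 0.072, F2r 0.077, F2rl2 0.071), though 10 had an unadjusted p under 0.05 with all libraries. Without vavcre library 6 only 1 fell, with 0.064 for Gata2 and 0.077 for F2r. F2r had 0.054 and F2rl2 0.11 without no-vavcre library 1, and F2rl2 0.070 without vavcre library 4.

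Mast cell, basophil and eosinophil genes fell in 6 of 22 (27.3%, against 11.3% of all genes). Stem cell and multipotent progenitor genes fell in 4 of 27 (14.8%, near the share of all genes), and 1 (Csf2ra) rose. Il1rl1, the IL-33 receptor, had 9.20 and 13.5 CPM with vavcre, against 43.3 and 42.6 CPM without and 18.3 to 31.1 CPM in wild-type marrow. Cpa3, a mast cell protease, had 136 and 158 CPM with vavcre, against 279 and 302 CPM without. Il5ra, the IL-5 receptor, had 0.169 and 0.380 CPM with vavcre and 1.94 and 4.19 CPM without. In all 3 the vavcre libraries were below the other 5.

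Fcer1a, a chain of the IgE receptor, had 0 counts with vavcre and 71 without, which is at least 32.0-fold lower with vavcre at a floor of 3 counts over the group. Tpsb2 and Cma1, mast cell proteases, had 0 counts with vavcre and 79 and 35 without, at least 35.6-fold and 15.8-fold lower, but they were also at 0 in all 3 wild-type libraries. The median of the mast cell list was -0.38, 0 without no-vavcre library 1, -0.09 without no-vavcre library 5 and -1.48 without vavcre library 6, with -0.80 without vavcre library 4, while its summed level was 572 and 988 CPM with vavcre, against 782 and 804 CPM without and 590 to 711 CPM in wild type. The fit on the 4 libraries alone called 2 falls.

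Procr (chr2:155751125-155755478), the protein C receptor that marks blood stem cells, had 0 counts in both vavcre libraries, against 3.82 and 5.53 CPM without and 2.81 to 3.23 CPM in wild-type marrow. On 166 counts without vavcre, it was at least 74.8-fold lower with vavcre, with an adjusted p of 0.00011. Mecom, a stem cell transcription factor, had 2.79 and 2.53 CPM with vavcre, against 8.44 and 7.58 CPM without and 12.5 to 13.9 CPM in wild type. Slamf1, a surface receptor of stem cells, had 3.84 and 2.87 CPM with vavcre, against 12.1 and 14.8 CPM without. Hlf, a transcription factor of stem cells, had 70.6 and 69.9 CPM with vavcre and 110 and 119 CPM without. The stem cell list's median was 0.12, opposite in sign to most of its calls, and -0.01 without vavcre library 6. Csf2ra was not called without either no-vavcre library. Slamf1 was lost without no-vavcre library 5 (adjusted p = 0.089), where 2 fell, and without vavcre library 6 (0.068).

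Lymphoid genes rose in 4 of 26 (15.4%, against 9.37% of all genes) and 1 fell, with a median of 0.45 that was -0.19 without vavcre library 6. Il7r, the IL-7 receptor, had 6.54 and 5.70 CPM with vavcre, against 0.971 and 2.10 CPM without. Cd79b, a B-cell receptor chain, had 93.7 and 79.6 CPM with vavcre and 64.0 and 58.6 CPM without, and Vpreb3 and Blnk of early B cells also rose. Prf1, perforin of cytotoxic cells, was at 0 with vavcre and had 18 counts without, at least 8.11-fold lower with vavcre. The summed level was 432 and 458 CPM with vavcre, against 469 and 413 CPM without, so the groups overlapped. None of the 4 rises remained called without either no-vavcre library, with adjusted p of 0.098 and 0.15 for Vpreb3 and 0.061 and 0.16 for Cd79b without libraries 1 and 5 in turn. Without vavcre library 6, Vpreb3 had 0.081, and without vavcre library 4, where 7 rose, Cd79b had 0.12. Prf1 was lost without no-vavcre library 1 (0.29) and without each vavcre library (0.078 and 0.077). Of stroma and endothelium genes 1 of 13 (Bgn) fell (7.69%, against 11.3% of all genes). Of hepatocyte genes 1 of 13 (Trf, transferrin) rose (7.69%, against 9.37%), and Trf lost its call without no-vavcre library 5.

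Of 66 tested respiratory chain genes, 17 rose (25.8%, against 9.37% of all genes) and 9 fell (13.6%, against 11.3%), with a median of 0.08. In the quintile of all genes with the highest mean CPM, 24.3% were higher and 18.3% lower. With the 4 libraries alone, 3 respiratory chain genes rose and 1 fell. Among complex I genes 9 rose (Ndufa8, Ndufa12, Ndufb5, Ndufb6, Ndufb7, Ndufb8, Ndufb10, Ndufb11 and Ndufs3). Of ATP synthase genes, Atp5a1, Atp5b, Atp5d, Atp5g2 and Atp5h fell and Atp5o rose. Atp5g2 had 169 and 177 CPM with vavcre, against 315 and 334 CPM without. Atp5o had 399 and 380 CPM with vavcre, against 274 and 264 CPM without. Cytochrome c (Cycs) had 630 and 658 CPM with vavcre and 412 and 375 CPM without, and Cyc1, Uqcrc1, Uqcrq, Cox7b, Sdha and Sdhb rose as well, while Uqcrh, Sdhc and Cox6a1 fell. With no-vavcre library 5 omitted, 8 rose and 6 fell.

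Cholesterol synthesis and uptake genes fell in 6 of 23 (26.1%, against 11.3% of all genes), with a median of -0.45, which was -0.20 without vavcre library 6 and -0.75 without vavcre library 4. Stard4, a sterol carrier, had 17.9 and 18.7 CPM with vavcre, against 34.1 and 42.3 CPM without and 37.1 to 37.6 CPM in wild-type marrow. Insig1, a sterol-sensing regulator, had 43.0 and 30.5 CPM with vavcre, against 63.0 and 66.5 CPM without. Srebf2, the master transcription factor of the pathway, and Msmo1, one of its enzymes, also fell. With the 4 libraries alone, 0 of the 23 fell. In the fit lacking no-vavcre library 5, 2 fell, without vavcre library 6, 3 fell and 2 rose. Of 19 glycolysis genes, the glucose transporter Slc2a3 and phosphofructokinase Pfkl rose (10.5%, against 9.37% of all genes). Gpi1 fell (5.26%, against 11.3%). Pfkl had 464 and 550 CPM with vavcre and 329 and 316 CPM without. Slc2a3 and Gpi1 were lost without no-vavcre library 5 (0.092 and 0.14) and vavcre library 6 (0.064 and 0.051).

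Of 24 immediate-early genes, 12 were called higher than in wild-type marrow with vavcre and 13 without, where 12.5% and 0.509% of all genes were. Their summed level was 2366 and 2339 CPM with vavcre, against 1421 and 3000 CPM without and 464 to 495 CPM in wild-type marrow. Dusp1, a phosphatase of MAP kinases, had 319 and 358 CPM with vavcre, against 105 and 213 CPM without and 18.5 to 23.2 CPM in wild type. Junb of the AP-1 complex had 465 and 418 CPM with vavcre, against 160 and 299 CPM without and 68.2 to 81.5 CPM in wild type. Between the inducible groups, Dusp1 and Junb rose with vavcre (8.33% of 24 tested, against 9.37% of all genes). Dusp2, Btg2 and Ier3 fell (12.5%, against 11.3%), so both shares were near those of all genes. With the 4 libraries alone, 0 of the 24 rose and 0 fell. Btg2, an antiproliferative gene, had 95.5 and 74.8 CPM with vavcre, against 107 and 221 CPM without. The list's median was 0.14, -0.40, -0.10 and -0.20 without no-vavcre library 1, vavcre library 4 and vavcre library 6, and 0.69 without no-vavcre library 5, which was the higher of its group in all 5 genes. Without no-vavcre library 5, none fell, where the adjusted p was 0.13 for Dusp2 and 0.27 for Btg2. Without vavcre library 6 the adjusted p was 0.052 for Dusp2 and 0.061 for Btg2, and 1 fell. Without no-vavcre library 1, 1 rose and 5 fell.

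Heat-shock genes fell in 4 of 15 (26.7%, against 11.3% of all genes), with a median of -0.52. Bag3, a cochaperone, had 6.84 and 9.66 CPM with vavcre, against 24.8 and 24.6 CPM without. Hspd1 and Hspe1, the mitochondrial chaperonin pair, and Hsp90ab1 were the others. With the 4 libraries alone, 0 of the 15 fell. Leaving out no-vavcre library 5, 1 fell, with adjusted p of 0.13 for Hspd1 and 0.23 for Hsp90ab1, which also missed it without either vavcre library (0.074 and 0.058). Of 15 p53 and DNA damage genes, Bax, which promotes cell death, and Phlda3 rose (13.3%, against 9.37% of all genes). In this list edgeR called 0 lower, while limma voom called 3 lower. Bax had 117 and 124 CPM with vavcre, against 90.5 and 89.4 CPM without. Both were lost without no-vavcre library 5 (0.092 and 0.22), Bax without no-vavcre library 1 (0.070) and vavcre library 6 (0.061), and Phlda3 without vavcre library 4 (0.11). Of 10 tested imprinted and fetal growth genes, edgeR called 0, 1 had an unadjusted p under 0.05, and DESeq2 and limma voom called 1 each, and 2 fell without vavcre library 6. Near common transgene sites, Thumpd3 and Setd5, which flank the Rosa26 locus, changed in opposite directions, among 7 genes tested. That is 14.3% each way, against 9.37% higher and 11.3% lower over all genes. Thumpd3 had 108 and 94.6 CPM with vavcre and 74.6 and 75.2 CPM without, and Setd5 had 23.2 and 23.3 CPM with vavcre and 40.9 and 46.1 CPM without. With no-vavcre library 5 omitted the adjusted p was 0.058 for Thumpd3 and 0.075 for Setd5, and Thumpd3 also missed the threshold without no-vavcre library 1 (0.055) and vavcre library 4 (0.060).

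Falls were more frequent among long transcripts. In the quintile of genes with the longest transcripts (4750 bases or more), 5.17% were higher and 15.7% lower, with a median log2 fold change of -0.21. In the shortest quintile (up to 1520 bases), 11.4% were higher and 9.41% lower, with a median of 0.04. In the quintile with the highest GC content 7.66% were higher and 13.8% lower, against 10.4% and 8.74% in the lowest quintile. Of the falls named above, Tanc2, Nbeal1, Itpr3, Zfp831 and Rap1gap2 were in the longest quintile, while Rpl36, Rps10 and Rpl28 were in the shortest. With GC and length trends taken out of each library, 2686 genes were called, of which 2426 were among the 2799.

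Against wild-type marrow, which both comparisons share, 3634 genes (26.8%) differed with vavcre and 109 (0.804%) without. With vavcre 1691 (12.5%) were higher and 1943 (14.3%) lower, and without vavcre 69 (0.509%) were higher and 40 (0.295%) lower. The count without vavcre was 26 without library 5 of that group and 40 without library 1, and it was 241 and 242 when vavcre library 4 or 6, which are in neither group of that comparison, was left out. The ribosomal protein list had a median log2 fold change of -0.85 with vavcre and -0.14 without, and the G2 and M list one of 0.31 with vavcre and -0.07 without. For the immediate-early list these medians were 1.51 with vavcre and 1.39 without.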

How the data were processed

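Libraries were made from total RNA with the SMARTer ultra-low-input kit, per the labels' protocols. Tools named are HTSeq, TopHat2 and cutadapt, with build mm10, per the submitters' processing notes. Versions, strand setting and order were not given in the sources used here. Deposited by the authors were unnormalized read counts per RefSeq transcript for each library (33818 accessions). HTSeq sets aside reads that fit several features, which were 26.3% to 27.7% of the reads listed as assigned, ambiguous or without a feature in the 4 libraries and lower genes with several transcripts. Those summary lines entered neither library sizes nor tests. Names came from RefSeq (33431) or GENCODE vM21 (195), and 192 kept their own IDs. Summing gave 24416 genes. Of 5108 with more than 1 transcript, 1328 had no counts and were not analysed here, Kit, Ly6a, Cebpa and Vav1 among them.

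Genes were tested with edgeR 4.0.16 in R 4.3.3 (quasi-likelihood, TMM, filterByExpr, 13558 genes) in 1 fit of all 17 libraries (7 groups, 10 residual degrees of freedom). A call is a Benjamini-Hochberg adjusted p below 0.05. A test of 1 value over 2 libraries against 2 cannot go below an exact two-sided permutation p of 0.333, so library totals were not tested. CPM were computed with TMM library sizes, while sums over lists are of these CPM. SE is the absolute log2 fold change over the root of F. Intervals and the floor of 3 counts cover counting error only.

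The libraries compared and the lists were chosen with earlier results of these data known. Genes were named by rule: the LIN28B and let-7 list, the called genes without overlap that rose most (15) or fell most (15), with a higher group averaging 10 CPM or more, then the 3 called members of smallest p in each list. Other called list members are named where they complete a count, and other genes are marked. Predicted and sex-linked genes were left out of the largest changes, and a few genes the rule or lists hold are not reported here. Alternatives used DESeq2 1.42.0, limma 3.58.1 voom, other filters and subsets of libraries or genes, GC and length offsets, thinned counts and each replicate left out. Figures were drawn with matplotlib 3.10.9.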

Additional observations from a re-analysis of the deposited data

How the results depend on the processing

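With only the 4 libraries in the fit, 422 genes were called (220 higher, 202 lower), 154 of them at least 2-fold (51 higher, 103 lower) and 67 of them on the lists, against 183 of 627 list genes with all libraries. Of the 422, 419 were among the 2799. With a mean of at least 10 CPM required, 6947 genes were tested, and 431 were called and at least 2-fold (142 higher, 289 lower). Leaving out each replicate in turn gave 1376 to 3152 calls (604 to 1353 higher, 772 to 1806 lower), 565 to 1457 at least 2-fold (124 to 444 higher, 441 to 1088 lower), 94 to 210 list genes, 3525 to 3846 genes with vavcre against wild type and 26 to 242 without. Without vavcre against wild type, DESeq2 called 403, no filter on low counts 191 and marrow libraries alone 51. The causes were not tested, and a lone library left in an arm was assumed to vary like the other groups. The share of calls that were higher ran from 42.5% to 52.1%, against 45.4%, and limma voom put the median of all genes at -0.17. Of values of named genes under the alternatives, 1769 kept their side of the threshold, 185 lost the call and 14 gained it, and none changed sign in a call. Chromosome, GC, length, thinning, ribosomal and 10 CPM alternatives were added after seeing the data.

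No paired analysis was possible because the 2 groups compared share no replicate numbers (4 and 6 with vavcre, 1 and 5 without). Depth limits the low genes in every library. Of tested genes, 1393 were at 0 in both vavcre libraries, which were the deeper ones, and 804 in both without vavcre.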
